A study of Mus musculus with 8 samples.

Results

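Heme is made and broken down by short enzyme chains, and 9 of their genes were followed here across 8 arrays of mouse white fat from the epididymal depot. The genes were chosen by name: 7 of heme synthesis (Alas1, Alad, Uros, Urod, Cpox, Ppox and Fech) and the 2 heme oxygenases (Hmox1 and Hmox2). Each was read by exactly 1 array row annotated to that gene symbol alone, so all 9 were measured, among 19310 genes in all, and no second row could serve as a check. The study compared 4 wild-type (WT) samples with 4 samples labelled Rev-erb alpha KO, a knockout of the nuclear receptor encoded by Nr1d1. All 8 came from male C57BL/6 mice, 12 to 15 weeks old and on a standard diet in 12 h of light and 12 h of dark, with tissue taken at Zeitgeber time 10, in hours after lights on. The labels do not say how the gene was deleted or in which cells, and they number the replicates without saying whether each is a separate mouse, so the p-values cover no more than the spread among the samples at hand.

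Heme synthesis starts in the mitochondrion, where Alas1 encodes 5-aminolevulinate synthase, the rate-limiting enzyme outside red cells. It passes through the cytosol (Alad, Uros and Urod) and ends in the mitochondrion, where Cpox and Ppox oxidise the porphyrin and Fech, the ferrochelatase, inserts iron. The heme oxygenases open the ring to biliverdin, carbon monoxide and iron, Hmox1 as the inducible and Hmox2 as the constitutive enzyme. Heme is the ligand of Rev-erb alpha, which represses transcription with a corepressor when heme is bound, so these genes make and remove the receptor's own ligand.

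In the knockout-labelled fat, Alad was lower, and no other of the 9 genes passed the test. Alad, which joins 2 molecules of 5-aminolevulinate to porphobilinogen, stood at 70.2% of the wild-type level, a fold of 0.702 with a 95% interval of 0.635 to 0.775. Among the members, Alas1 and Hmox1 had the next largest differences, at 78.8% and 87.1% of wild type, and neither passed adjustment over all rows. The 1 member called lower compares with 3.59% of all 20748 tested rows called lower, and the 0 members called higher with 3.81% called higher (7.40% called in all; limma, Benjamini-Hochberg adjusted p under 0.05). The median log2 fold change was -0.087 over the members and -0.0064 over all rows, and 6 of 9 members lay below 0, as did 52.0% of all rows. Without wild-type array 1 the members' median was -0.0515.

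The sequence around the start of Alad is shown because Alad is the member that changed. RefSeq promoter windows (GRCm38.p6, 250 bases before to 50 after a start) were used for 7 of the members, with 12 windows in all. Capitals mark E-boxes, CACGTG, the palindromic site of clock activators such as BMAL1 with CLOCK. Alad has 2 annotated starts, and each window held 1 E-box, at different places. The window of the inner start lies at chr4:62519860-62520159, minus strand, with its E-box beginning 28 bases before the start:
Alad, inner start: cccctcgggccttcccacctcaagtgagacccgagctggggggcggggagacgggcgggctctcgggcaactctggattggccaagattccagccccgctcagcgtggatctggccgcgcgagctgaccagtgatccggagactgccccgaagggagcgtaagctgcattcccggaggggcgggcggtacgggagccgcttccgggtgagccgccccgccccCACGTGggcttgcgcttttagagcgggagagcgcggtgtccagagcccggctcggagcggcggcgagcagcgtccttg

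The E-box of the outer Alad start lies 105 bases before it (chr4:62520138-62520193, minus strand, with 25 bases on each side). Urod holds one 49 bases before its start (chr4:116994432-116994487, minus strand), and 1 of the Uros windows begins with one, 250 bases before the start (chr7:133709515-133709545, minus strand):
Alad, outer start: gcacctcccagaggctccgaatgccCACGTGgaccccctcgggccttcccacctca
Urod: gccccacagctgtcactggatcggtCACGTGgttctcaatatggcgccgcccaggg
Uros: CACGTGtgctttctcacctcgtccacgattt

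E-boxes thus stood in 4 of the 12 windows, and in 7.15% of all 32851 mouse promoter windows of that length. The 4 windows came from 3 of the 7 genes, and no share per gene was computed over all promoters. Of these 3 genes, Alad was called, while Urod and Uros did not pass. The hexamer AGGTCA of Rev-erb and ROR receptors, the antioxidant response core TGACNNNGC and the D-box TTATGTAA were in none of the 12 windows on either strand, against 16.3%, 12.4% and 0.938% of all windows. These are matches of letters in short windows and say nothing of binding. Hmox1 had no promoter entry and the sequence of Fech was left out of the search, so neither promoter was searched.

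The values of Alad showed 2 tight groups. The wild-type arrays 1 to 4 read 9.83, 9.88, 9.98 and 9.76 log2, and the knockout-labelled arrays read 9.46, 9.36, 9.25 and 9.35. All 4 knockout-labelled arrays lay below all 4 wild-type arrays, with a gap of 0.31 log2 between the groups and SDs of 0.09 and 0.08 within them. The difference came to -0.51 log2 (SE 0.065, n = 4 per group, limma adjusted p = 0.00125), which ranked 170 by p and 502 by size among the tested rows. The difference was called in each of 17 alternative settings, between -0.566 and -0.456.

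Alas1, at the top of the pathway, varied more within groups than Alad, with SDs of 0.26 and 0.20. It read 10.08, 10.62, 10.65 and 10.40 log2 in wild type and 10.03, 10.33, 9.86 and 10.15 in the knockout-labelled arrays. The groups overlapped through wild-type array 1, whose value was the lowest of its group and lay among the knockout-labelled ones. The means differed by -0.34 log2 (SE 0.13, 95% interval -0.64 to -0.05, limma adjusted p = 0.155, unadjusted p = 0.0255), where the largest unadjusted p among called rows was 0.00368. Without wild-type array 1 it was -0.463 and passed (limma adjusted p = 0.0386), and with any other single array left out it did not.

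**Figure D1:**
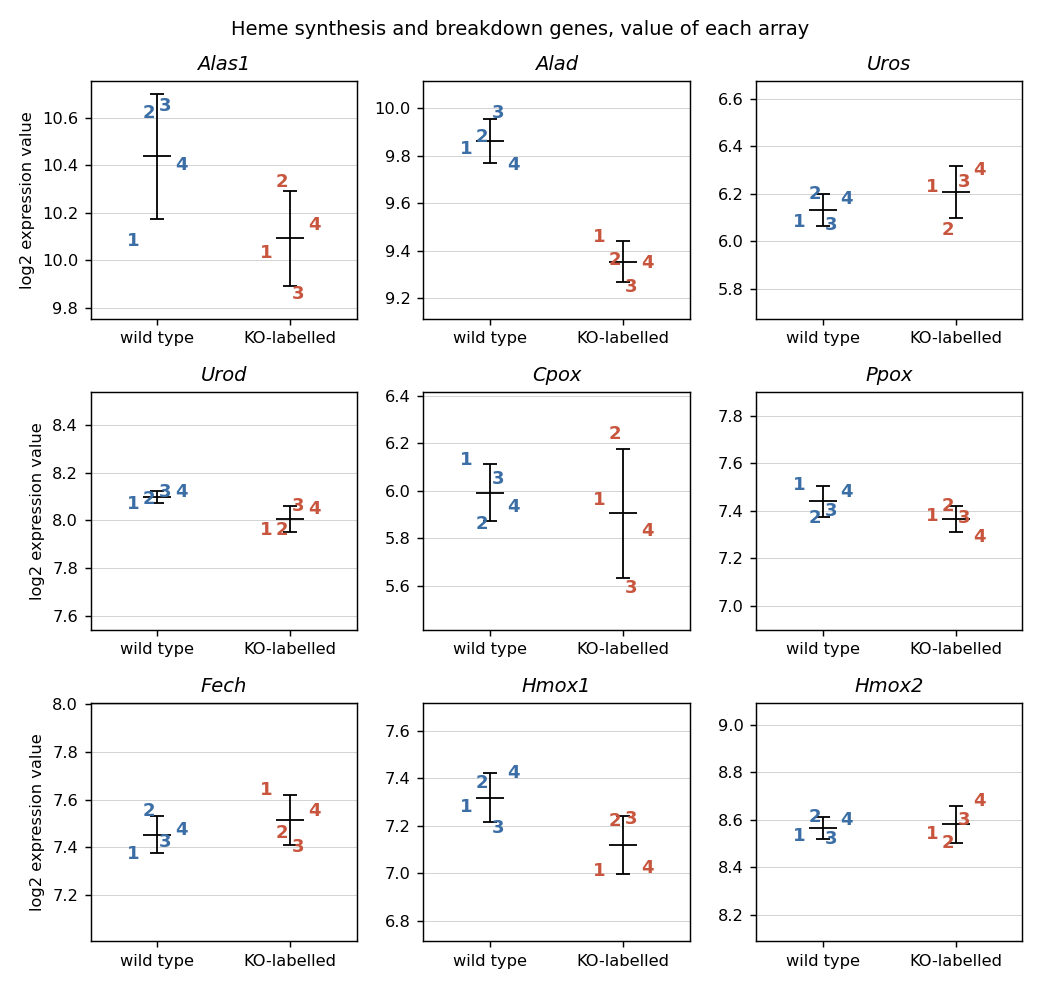
Log2 expression value of each array (numbers, the replicate number of the labels) for the 9 genes in wild type and knockout-labelled (KO-labelled) fat, with bars at mean ± SD (n = 4); every panel spans 1 log2 unit. The groups are apart for Alad, nearly touch for Urod and overlap elsewhere, and the low wild-type value of Alas1 is that of array 1.

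The cytosolic steps after Alad gave small differences. Urod, the uroporphyrinogen decarboxylase, read 8.07, 8.09, 8.12 and 8.12 log2 in wild type and 7.96, 7.96, 8.06 and 8.05 in the knockout-labelled arrays. Its groups did not overlap but were only 0.0057 log2 apart, and the log2 fold change of -0.092 (SE 0.05, limma adjusted p = 0.325) did not pass. With Alad it was 1 of 2 members whose groups did not overlap, beside 15.3% of all tested rows. Uros, the uroporphyrinogen III synthase, read 6.08, 6.20, 6.07 and 6.18 in wild type and 6.23, 6.05, 6.25 and 6.30 in the knockout-labelled arrays, 3 of them above every wild-type array and 1 below. The means differed by 0.072 log2 (SE 0.066, limma adjusted p = 0.587).

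The late mitochondrial steps did not pass either. Cpox, the coproporphyrinogen oxidase, read 6.13, 5.86, 6.05 and 5.93 log2 in wild type and 5.96, 6.24, 5.59 and 5.83 in the knockout-labelled arrays, which held both the highest and the lowest of its 8 values. Its log2 fold change of -0.087 had a wide 95% interval, -0.36 to 0.18 (limma adjusted p = 0.744), and was 0.0189 without knockout-labelled array 3. Ppox, the protoporphyrinogen oxidase, read 7.51, 7.37, 7.40 and 7.48 against 7.38, 7.42, 7.37 and 7.29, a log2 fold change of -0.075 (95% interval -0.20 to 0.05, limma adjusted p = 0.481).

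Fech, which completes heme, read 7.37, 7.55, 7.42 and 7.47 log2 in wild type and 7.64, 7.46, 7.40 and 7.55 in the knockout-labelled arrays. The 2 groups overlapped, and the log2 fold change was 0.06 (95% interval -0.09 to 0.21, limma adjusted p = 0.669). Of the 7 synthesis genes, 5 lay below 0 and 2 above, and 1 was called, where 52.0% of all rows lay below 0 and 7.40% were called.

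Neither heme oxygenase passed the test. Hmox1 read 7.28, 7.38, 7.19 and 7.42 log2 in wild type and 7.01, 7.22, 7.23 and 7.02 in the knockout-labelled arrays. All 4 knockout-labelled values were below the wild-type mean of 7.32, and 2 were below every wild-type array. The mean difference was -0.20 log2 (SE 0.075, 95% interval -0.36 to -0.03, limma adjusted p = 0.144), and it lay between -0.241 and -0.163 over 17 alternative settings without passing in any.

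Hmox2 read 8.53, 8.61, 8.52 and 8.60 log2 in wild type and 8.54, 8.50, 8.60 and 8.68 in the knockout-labelled arrays. Its log2 fold change of 0.015 (limma adjusted p = 0.913) had the smallest size of the 9, and the 95% interval of the fold, 0.927 to 1.1, limits any difference at this precision. Whether Hmox1 and Hmox2 differ from each other in their response was not tested.

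**Figure D2:**
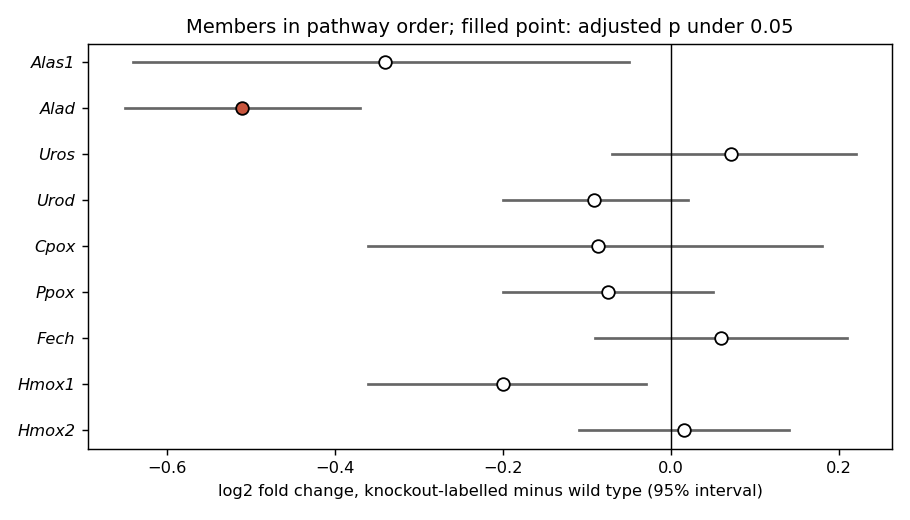
Log2 fold change (knockout-labelled minus wild type) of the 9 genes with 95% intervals from the limma fit, in pathway order from Alas1 to Fech, then the heme oxygenases; a filled point has an adjusted p under 0.05. Alad alone is filled, and the unadjusted intervals of Alas1 and Hmox1 also lie below 0.

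By array, knockout-labelled arrays 1, 2 and 3 each had 7 of 9 members below the wild-type mean and array 4 had 6. The same share over all rows was not counted, so these counts cannot be set against a shift of a whole array. Earlier work on these data saw knockout-labelled arrays 1 and 2 part from 3 and 4. With arrays 1 and 2 alone the log2 fold changes of Alad, Alas1 and Hmox1 were -0.456, -0.256 and -0.205, and with arrays 3 and 4 alone -0.566, -0.432 and -0.194. Cpox and Hmox2 took opposite signs in these pairs of arrays, Cpox at 0.109 and -0.284 and Hmox2 at -0.0448 and 0.0748, none of them called. The median over the members was -0.0448 with the first pair and -0.11 with the second. The targeted gene did not check the labels. Nr1d1 read 9.47, 9.11, 9.18 and 9.83 in wild type and 9.56, 9.28, 8.90 and 8.80 in the knockout-labelled arrays (log2 fold change -0.26, limma adjusted p = 0.479), and the sources used here do not say which part of the transcript its row reads.

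Markers of cell types were compared because the tissue mixes adipocytes with other cells, and in bulk tissue fewer cells of a type and less RNA per cell cannot be told apart. The mean of 12 mature adipocyte markers was 11.50 to 11.63 log2 in wild type and 11.55 to 11.58 in the knockout-labelled arrays. This mean joins genes that moved in opposite directions: Lep (0.75) and Aqp7 (0.39) were called higher and Cebpa (-0.37) lower, where 7.40% of all tested rows were called. In this list 8 of the 12 lay below 0, and the groups did not overlap for 6, beside 15.3% of all tested rows. The mean of 16 macrophage markers was 7.12 to 7.52 in wild type and 7.38 to 7.58 in the knockout-labelled arrays. Their median log2 fold change was 0.094, with 2 of the 16 below 0, and Cd14, 1 of these 2, was the only one called, lower. Hmox1, abundant in macrophages, was at -0.20. The mean of 6 erythroid markers was 4.84 to 5.05 and 4.83 to 5.01, and that of 10 epididymal epithelium markers 4.05 to 4.14 and 4.05 to 4.11, with no gene called in either list. The part of cell composition in the Alad difference was not tested.

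Alas2, Blvra and Blvrb, other enzymes of the pathway, were also measured, and none of these 3 was called. Alas2, the synthase of red cells, read 6.22 to 6.84 log2 in wild type and 6.28 to 7.01 in the knockout-labelled arrays, a log2 fold change of -0.0087 (SE 0.16, limma adjusted p = 0.983) whose sign turned in several alternatives. Blvra, the main biliverdin reductase, read 6.99, 6.96, 6.92 and 6.81 in wild type and 7.12, 7.18, 6.91 and 7.28 in the knockout-labelled arrays, 3 of which exceeded every wild-type array. Its log2 fold change of 0.20 (SE 0.08, limma adjusted p = 0.173) passed only without knockout-labelled array 3 (0.0498). Blvrb, the second reductase, was at -0.068 (limma adjusted p = 0.591).

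Of 21 measured regulators of Alas1 and Hmox1, 2 were lower and 0 higher, with a list median of -0.10. The share of all tested rows was 3.59% lower and 3.81% higher. Both called regulators were PGC-1 coactivators. Ppargc1a, whose product PGC-1 alpha coactivates Alas1 in liver, read 7.05, 6.73, 6.61 and 6.95 log2 in wild type and 6.34, 6.28, 6.39 and 6.08 in the knockout-labelled arrays. The groups did not overlap and differed by -0.56 log2 (SE 0.1, limma adjusted p = 0.00891), or -0.70 on its second row. Ppargc1b was at -0.52 (SE 0.085, limma adjusted p = 0.00563). Both calls were lost when wild type was set against knockout-labelled arrays 1 and 2, though the differences stayed close in size. Ppargc1a was then at -0.525 (SE 0.119, limma adjusted p = 0.0564) and Ppargc1b at -0.507 (SE 0.114, limma adjusted p = 0.053).

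Nfe2l2, which encodes NRF2, an activator of Hmox1, read 9.46, 9.46, 9.42 and 9.51 log2 in wild type and 9.34, 9.28, 9.23 and 9.29 in the knockout-labelled arrays. The groups did not overlap, but the log2 fold change of -0.18 (SE 0.05, limma adjusted p = 0.0595) passed only with the dimmest rows left out (0.0395) or with trend and robust options (0.0419). Bach1, a heme-sensing repressor of Hmox1, was at -0.32 (SE 0.11, limma adjusted p = 0.114). Of 9 measured NRF2 targets beside Hmox1, Txnrd1, a thioredoxin reductase, was lower (-0.24, SE 0.065, limma adjusted p = 0.0486) and none higher. Among all tested rows, 3.59% were called lower and 3.81% higher. With single arrays left out Txnrd1 passed only without knockout-labelled array 4 (0.0384 to 0.125 over the 8 fits, at -0.285 to -0.203 log2). Neither pair of knockout-labelled arrays gave a call for Txnrd1 (-0.293 with arrays 1 and 2, -0.192 with arrays 3 and 4).

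Of 19 measured genes of heme and porphyrin transport and binding, 1 was higher and 1 lower, with a median of -0.03. This stood beside 3.81% of all tested rows called higher and 3.59% called lower. Slc48a1, which carries heme out of endosomes and lysosomes into the cytosol, read 10.34, 10.40, 10.44 and 10.38 log2 in wild type and 10.71, 10.65, 10.78 and 10.73 in the knockout-labelled arrays. The groups were 0.21 log2 apart and their means differed by 0.33 log2 (SE 0.052, 1.25-fold, limma adjusted p = 0.00461), called in all 17 alternative settings. Flvcr2, a transporter of the FLVCR family, read 5.87, 5.71, 5.93 and 5.86 in wild type and 5.36, 5.48, 5.46 and 5.72 in the knockout-labelled arrays, where array 4 lay just above the lowest wild-type value. Its log2 fold change was -0.34 (SE 0.08), called at a limma adjusted p of 0.0307. Leaving out 1 array at a time it lay between -0.407 and -0.289, and the call was kept only without wild-type array 2 or knockout-labelled array 4 (0.0122 to 0.0854 over the 8 limma fits). Using arrays 3 and 4 of the knockout-labelled group, Flvcr2 was at -0.251 and not called (0.144).

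The iron genes that were called went in both directions, with 2 higher and 2 lower of 20 measured and a median of 0.042. Over all tested rows, 3.81% were called higher and 3.59% lower. Trf, the gene of transferrin, the iron carrier of plasma, read 12.25, 12.38, 12.43 and 12.39 log2 in wild type and 12.00, 11.86, 11.72 and 11.78 in the knockout-labelled arrays. Its means differed by -0.52 log2 (SE 0.07, limma adjusted p = 0.00186), with no overlap. Aco1, the cytosolic aconitase that becomes iron regulatory protein 1 without its iron-sulfur cluster, read 9.85, 9.95, 10.01 and 9.99 in wild type and 9.25, 9.31, 9.56 and 9.39 in the knockout-labelled arrays. Its difference of -0.57 log2 (SE 0.073, limma adjusted p = 0.00132) was close in size to that of Alad.

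Iscu, the scaffold of iron-sulfur clusters, read 9.66, 9.74, 9.77 and 9.75 log2 in wild type and 9.96, 9.97, 9.97 and 9.98 in the knockout-labelled arrays. The rise was 0.24 log2 (SE 0.048, limma adjusted p = 0.0136), and 0.31 on the second Iscu row. With arrays 3 and 4 of the knockout-labelled group left out, the rise was 0.236 log2. Its SE was then 0.062, and the call was lost (limma adjusted p = 0.0882). Hfe, the hemochromatosis gene, was at 0.48 (SE 0.13, limma adjusted p = 0.0461), and with single arrays left out passed only without knockout-labelled array 2 (0.00788 to 0.112 over the 8 fits, at 0.354 to 0.605 log2). Hfe was at 0.274 and not called with arrays 1 and 2 of the knockout-labelled group (limma adjusted p = 0.17), and at 0.693 with arrays 3 and 4 (0.00469). The transferrin receptor gene Tfrc, chosen after its value was seen, was at -0.56 (SE 0.15) and just missed the threshold (limma adjusted p = 0.0511), its wild-type values spanning 6.30 to 6.53 and its knockout-labelled ones reading 5.54, 5.60, 6.30 and 6.03.

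Among 22 measured genes of heme proteins, the users of heme, 2 were higher and 2 lower, with a median of -0.0073. All tested rows were called higher in 3.81% and lower in 3.59%. Like the other lists, this list was chosen with earlier results of these data known, so its counts are no test of heme proteins. The P450 genes Cyp2f2 (-2.85, SE 0.25, limma adjusted p = 0.000177) and Cyp2e1 (-1.16, SE 0.22, 0.0105) were lower, and Cyp2e1 was at -0.687 with knockout-labelled arrays 1 and 2 alone. Ptgs2, a prostaglandin synthase, was higher, at 5.31 to 5.35 log2 in wild type and 5.63 to 5.89 in the knockout-labelled arrays (log2 fold change 0.42, SE 0.068, limma adjusted p = 0.00495). Cyb5b, an outer mitochondrial membrane cytochrome b5, was at 0.46 (SE 0.12, limma adjusted p = 0.0397) and with single arrays left out passed only without knockout-labelled array 2 (0.0172 to 0.106 over the 8 fits, at 0.347 to 0.547 log2). With arrays 1 and 2 of the knockout-labelled group Cyb5b was at 0.288 and not called (limma adjusted p = 0.172), and with arrays 3 and 4 at 0.629 (0.0123).

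**Figure D3:**
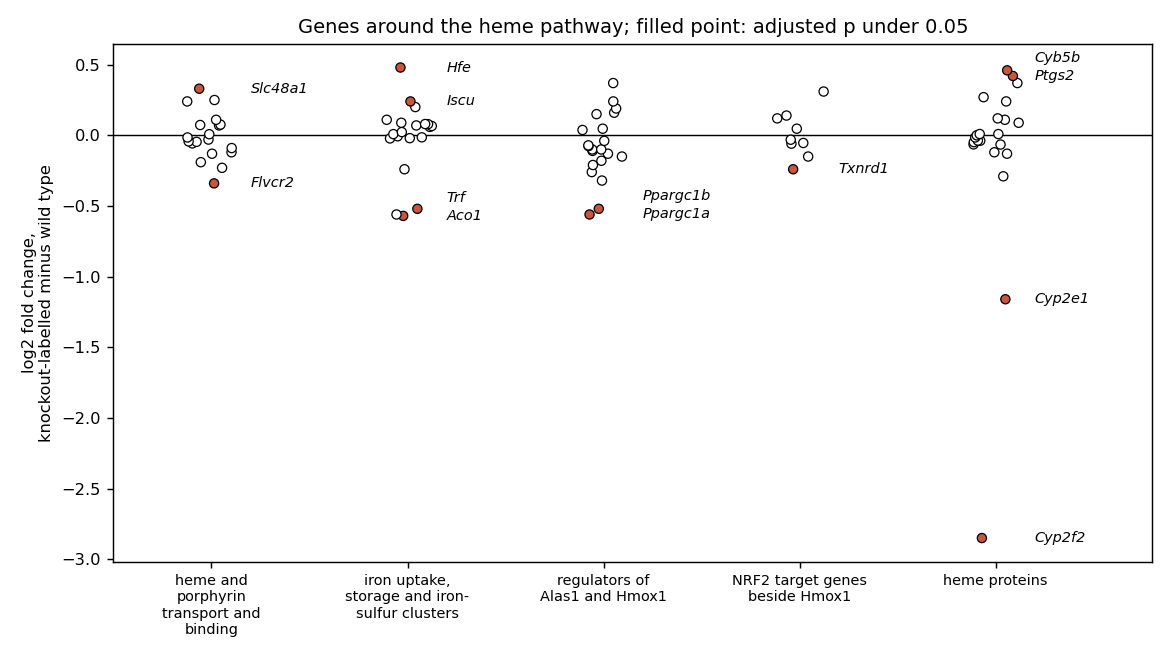
Log2 fold change (knockout-labelled minus wild type) of each measured gene in 5 lists around the heme pathway, 1 point per gene on its brightest row; filled points, with names, have a limma adjusted p under 0.05. Most points lie near 0 in every list, and the P450 genes Cyp2f2 and Cyp2e1 lie farthest below it.

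The genes whose pattern over the 8 arrays was most like that of Alas1 were Fitm2, Faf1 and Pds5a (Pearson r = 0.972, 0.968 and 0.965), and those most like Hmox1 were Bptf, Ncoa3 and Pdik1l (0.979, 0.975 and 0.962). The arrays share their group in these correlations, and none of these 6 genes passed the test, with log2 fold changes of -0.20 to -0.11.

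**Figure D4:**
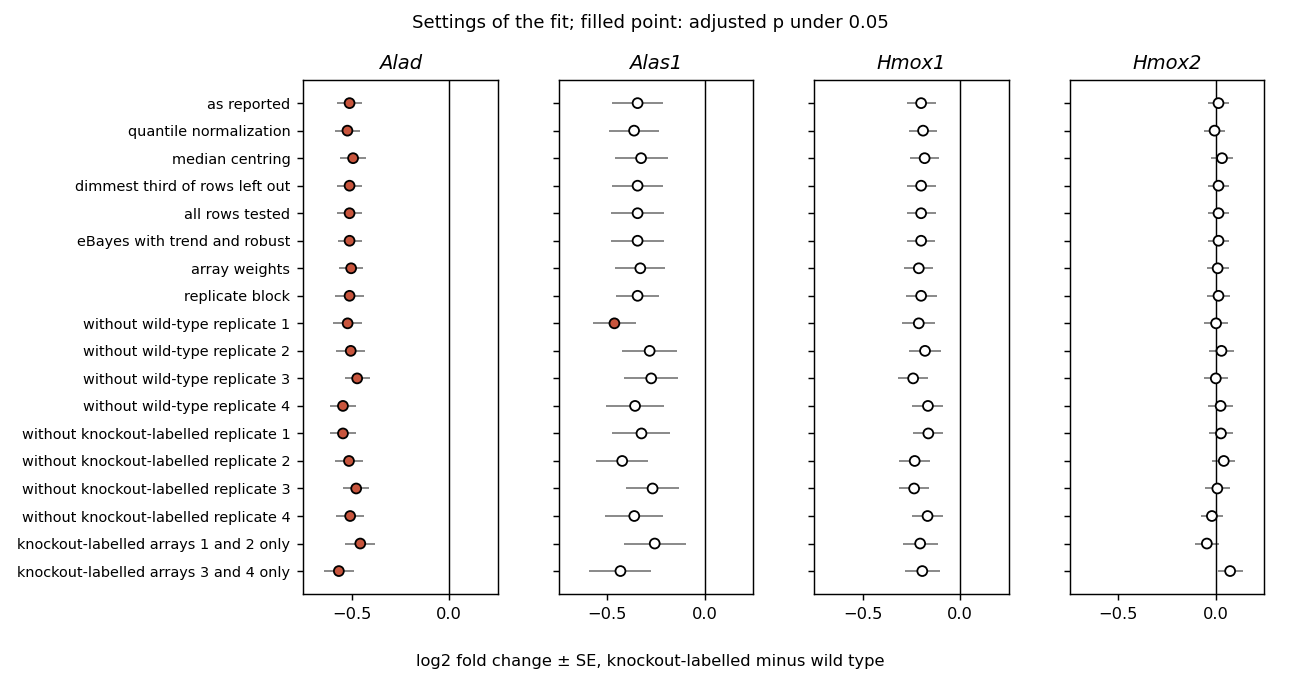
Log2 fold change ± SE (knockout-labelled minus wild type) of Alad, Alas1, Hmox1 and Hmox2 in the reported fit and 17 alternative settings; a filled point has a limma adjusted p under 0.05. Alad is filled in every setting, Alas1 only without wild-type array 1, and Hmox1 and Hmox2 in none.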

How the data were processed

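The deposited table holds log2 values made by the authors, 1 per row and array of a whole-transcript Affymetrix mouse array. The submitters' processing notes name affy. Background correction, normalization, summarization and genome build are not given in the sources used here, and the log2 scale was read from the values (2.09 to 13.4). Levels are comparable between arrays for 1 gene, not between genes. Of 23346 rows, the 20748 with exactly 1 gene symbol were fitted with limma 3.58.1 (R 4.3.3; lmFit and eBayes, 2 groups, no other term, no filter on dim rows). Tests are two-sided, with Benjamini-Hochberg adjustment over those rows and calls at an adjusted p under 0.05. Fold changes take wild type as the base, so a negative log2 value is lower in the knockout-labelled arrays.

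A gene was read by its brightest row. Named were all members, a fixed set of regulators and pathway enzymes (Nr1d1, Ppargc1a, Nfe2l2, Bach1, Alas2, Blvra and Blvrb) and, per list, up to 5 called genes with the smallest p (the 1 with the smallest p where none was called), plus the 3 genes of highest Pearson r with Alas1 and with Hmox1. The members and lists were chosen with earlier results of these data known. The code was tested on simulated data. Alternatives covered normalization, centring, dim rows, rows tested, eBayes options, array weights, a replicate block, arrays left out, the threshold and the row per gene. No pair of arrays held identical values. Precision is limited by there being 4 arrays a group.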

Additional observations from a re-analysis of the deposited data

Results flagged for a closer look

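In 1 of the 56 groups of 4 arrays examined over the 28 named genes, an array stood apart. The Cyb5b value of wild-type array 4, 9.80 log2, lay below the other 3 wild-type arrays at 10.03 to 10.08, and its gap made up 0.849 of the group's range, above Dixon's 95% limit for 4 samples. Chance flags about 1 in 20 such groups. Without that array the Cyb5b log2 fold change was 0.394 and was not called (limma adjusted p = 0.106).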

How the results depend on the processing

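The number of members called lower was 1 in every setting but 1: leaving out 1 array at a time it ranged from 1 to 2, the second being Alas1 without wild-type array 1. No member was called higher in any setting. The median log2 fold change of the members was -0.0979 to -0.0515 leaving out 1 array at a time and -0.0448 using knockout-labelled arrays 1 and 2 only. Rows called numbered 1536, 913 to 1418 leaving out 1 array at a time (972, 1004 and 913 without wild-type arrays 3 and 4 and knockout-labelled array 4), 701 using knockout-labelled arrays 1 and 2 only and 2552 at an adjusted p under 0.10.

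Signs turned for 5 genes that were not called. Cpox ranged from -0.20 to 0.0189 leaving out 1 array at a time and was 0.109 using arrays 1 and 2 of the knockout-labelled group. Hmox2 was at -0.00517 with quantile normalization, -0.0189 to 0.0422 leaving out 1 array at a time and -0.0448 with arrays 1 and 2 only. Alas2 was at 0.00837 with quantile normalization, 0.0094 with median centring, -0.151 to 0.0908 leaving out 1 array at a time and 0.158 with arrays 1 and 2 only. Nr1d1 was at 0.0265 with arrays 1 and 2 only and Blvrb at 0.0114 with arrays 3 and 4 only. The causes were not tested.

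Same-numbered arrays correlated in their deviations from the group means by -0.067 to 0.134, over 0.1 in 1 of 4 pairs. Between the groups, differently numbered arrays correlated by -0.078 to 0.095. Whether the replicate numbers pair the arrays cannot be told from values this small. With the replicate number as a replicate block 1105 rows were called, Alad among them, and the calls of Txnrd1 (limma adjusted p = 0.0544) and Iscu (0.0523) were lost. Quantile normalization ended the calls of Txnrd1, Hfe and Cyb5b (0.0576, 0.0502 and 0.0522), median centring that of Txnrd1 (0.0688), and testing all rows those of Txnrd1 and Hfe (0.0541 and 0.054). No detection calls were used, so dim rows have no bound for their background.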
